A study of Homo sapiens with 9 samples.

Results

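The T-box transcription factors described here are 10 genes chosen by name, TBX1, TBX2, TBX3, TBX4, TBX5, TBX6, TBX15, TBX18, TBX20 and TBXT, out of 60708 genes in the count files. The choice used no cut-off on a measured value, but earlier results of these data were known when it was made. The 7 T-box genes outside the 10 are given further below. Their RNA was measured by sequencing in 9 libraries that the labels give as MDA-MB-231, an established human cell line of triple-negative breast cancer. Of these libraries, 3 were labelled WT and 3 each came from CS16 and CS19, cell lines labelled SNAI1-KO, so that 6 libraries carried that label. CS16 and CS19 are each a single clone, made by the authors with CRISPR/Cas9, a pool of guides against SNAI1, repair plasmids and puromycin selection. No cells were treated, and all were grown in the same medium with 10% fetal bovine serum. SNAI1 encodes a zinc-finger repressor of epithelial genes, and the comparison asks what changes in these cells when it is targeted. The labels do not say whether the 3 libraries of a group came from separate cultures, so the p-values measure only the spread between these libraries, which may be technical.

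T-box proteins share a DNA-binding domain, the T-box, and bind DNA at short sites built on one half-site. They act as activators or repressors in the germ layers, heart, limbs, pharynx and mammary gland of the embryo, often together with GATA, NKX and HAND factors. TBX2 and TBX3 are mostly repressors, are needed for mammary gland formation and are found at raised levels in breast tumours. By sequence the members fall into the TBX2 subfamily (TBX2, TBX3, TBX4 and TBX5), the TBX1 subfamily (TBX1, TBX15, TBX18 and TBX20), TBX6, and TBXT, which is also called brachyury.

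In brief, TBX2, TBX3, TBX18 and TBX20 were at or near 0 in WT and were expressed in every library of both clones. TBX1 was present in WT and higher in the clones, TBX15 was low and fell, and TBX6 was low in all 3 groups. TBX4, TBX5 and TBXT had at most 6 counts in any library. For a bulk measurement of this kind, fewer cells that express a gene and less RNA of it per cell cannot be told apart.

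The libraries held 19527195 to 28627777 counted read pairs, and 3 counts, the floor used here, corresponded to between 0.0984 and 0.172 CPM (counts scaled to library size by TMM over the 9 libraries). SNAI1 itself was not lower in the libraries labelled SNAI1-KO. It had 16, 38 and 21 counts in WT, 26, 40 and 49 in CS16 and 57, 94 and 94 in CS19, with a log2 fold change of 0.89 against WT (SE 0.42, adjusted p = 0.0838 by edgeR's quasi-likelihood test and the Benjamini-Hochberg method, as for every adjusted p given here) and of 1.32 in CS19 alone (SE 0.42, adjusted p = 0.0310). The counts are per gene, so they check neither a small deletion nor the protein. For these clones the paper reports lower SNAI1 mRNA at every exon by RT-qPCR and no detectable SNAI1 protein. It also reports deletions at the SNAI1 locus in the aligned RNA reads. CDKN2A, CDKN2B and MTAP were at 0 in the WT libraries, and their summed level was 164 to 182 CPM in the 6 clone libraries. The 10 basal breast markers summed to 6954 to 11507 CPM in WT and to 352 to 423 CPM in the clones, where CD44 and S100A6 had at most 2 counts each over all 6 libraries. KRT5, also on that list, had no count in any of the 9 libraries, and a sum weighs the most abundant genes most. These values leave it in doubt that CS16 and CS19 came from the same cells as the WT libraries. Their origin was not tested, and every difference between clones and WT given here is one between the libraries as labelled. Among the WT libraries, WT-2 stood apart. Its log2 profile correlated at 0.952 and 0.948 with WT-1 and WT-3, which correlated with each other at 0.995, while replicates of a clone correlated at 0.995 to 0.997 (Pearson, across 19631 genes).

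The DNA before the start of the members is shown first because 4 of them were high in both clones together, and because SNAI1 binds the E-box CAGGTG. The 300-base promoter windows of RefSeq on GRCh38.p14 (250 bases before the start and 50 after it) covered 7 of the 10 members, namely TBX1, TBX4, TBX5, TBX6, TBX18, TBX20 and TBXT. The 250 bases before the start are printed for TBX18 (chr6:84764599-84764848, minus strand) and TBX20 (chr7:35254101-35254350, minus strand), which were high in the clones, and for TBX5 (chr12:114408443-114408692, minus strand, the outermost of its RefSeq starts), which was at or near 0 throughout. Capitals mark a GC box, GGGCGG, here in its reverse complement CCGCCC.

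TBX18: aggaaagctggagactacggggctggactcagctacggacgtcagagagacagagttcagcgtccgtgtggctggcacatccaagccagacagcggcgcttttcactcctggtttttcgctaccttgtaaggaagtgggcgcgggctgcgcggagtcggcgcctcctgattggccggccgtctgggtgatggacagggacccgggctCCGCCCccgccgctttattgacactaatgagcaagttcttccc

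TBX20: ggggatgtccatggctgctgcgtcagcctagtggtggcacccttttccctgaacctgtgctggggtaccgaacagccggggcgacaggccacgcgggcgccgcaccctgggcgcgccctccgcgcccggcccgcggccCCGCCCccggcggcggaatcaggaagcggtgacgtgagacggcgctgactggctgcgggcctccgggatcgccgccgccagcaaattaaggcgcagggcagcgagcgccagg

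TBX5: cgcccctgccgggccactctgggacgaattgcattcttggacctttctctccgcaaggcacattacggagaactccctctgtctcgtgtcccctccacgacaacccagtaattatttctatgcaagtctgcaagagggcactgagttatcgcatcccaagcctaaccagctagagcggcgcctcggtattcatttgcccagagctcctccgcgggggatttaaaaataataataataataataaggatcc

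The only CAGGTG (or CACCTG on the other strand) in these windows lay in TBX1, from base 41 after the start. It is printed with the bases around it (chr22:19756723-19756752, plus strand), the capitals marking the E-box.

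TBX1: gaagggaaccgcggccgggcCAGGTGaggg

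Of 35116 human promoter windows of the same length, 20.6% held a CAGGTG on either strand, 45.0% a GGGCGG, 11.5% a TATAAA and 0.980% the T-box half-site AGGTGTGA. The half-site can overlap the E-box by 5 letters. GGGCGG occurred in TBX4, TBX18, TBX20 and TBXT, TATAAA in TBXT, and AGGTGTGA in none of the 7 members. The windows of TBX18 and TBX20 held 59.3% and 73.3% G and C, against a median of 58.7% over all windows. These are matches of letters and not sites shown to be bound.

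**Figure D1:**
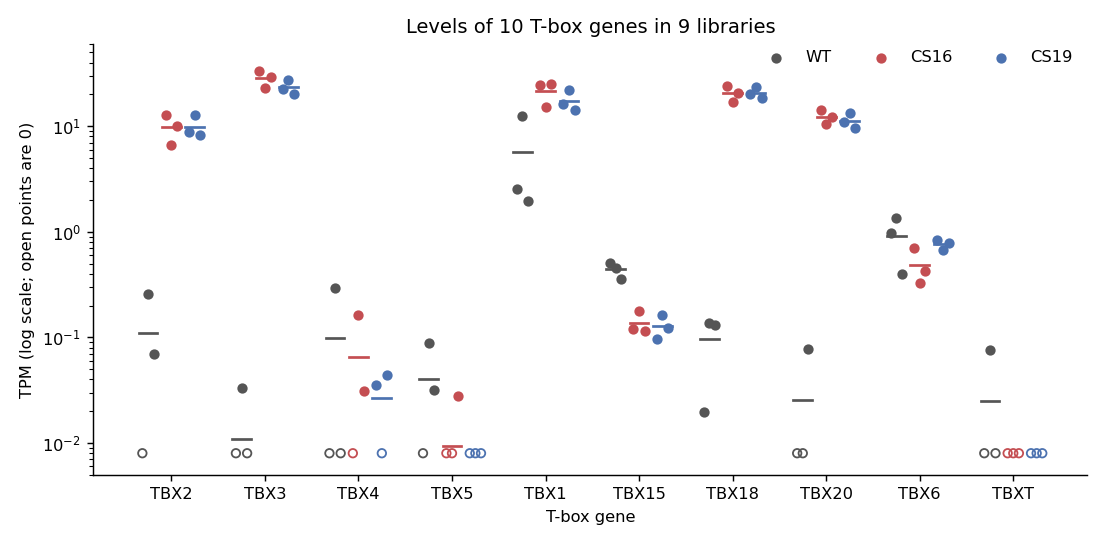
TPM on a log scale (vertical axis) of the 10 T-box genes (horizontal axis) in the 9 libraries, with 1 point per library, open points for libraries at 0 and a line at each group mean above 0. The 6 clone libraries lie above all 3 WT libraries for TBX1, TBX2, TBX3, TBX18 and TBX20 and below them for TBX15.

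Levels of different genes were compared as TPM, which divides the counts by the exonic length of the gene. In WT the order began with TBX1 at 5.64 ± 5.88 TPM (SD, n = 3), followed by TBX6 at 0.911 ± 0.483 and TBX15 at 0.441 ± 0.0772. The ranges of TBX6 and TBX15 overlapped, that of TBX1 did not reach them, and the other 7 genes had means of at most 0.109 TPM with overlapping ranges among neighbours. In CS16 the order was TBX3 at 28.6 ± 5.19, TBX1 at 21.7 ± 5.61, TBX18 at 20.5 ± 3.60, TBX20 at 12.3 ± 1.87 and TBX2 at 9.86 ± 3.16 TPM. In CS19 it was TBX3 at 23.4 ± 3.63, TBX18 at 20.8 ± 2.57, TBX1 at 17.3 ± 4.02, TBX20 at 11.3 ± 1.98 and TBX2 at 9.92 ± 2.48 TPM. In each clone the ranges overlapped between neighbours among the upper 3 genes, and between TBX20 and TBX2, but not between these sets. TBX6 followed at 0.488 ± 0.197 TPM in CS16 and 0.768 ± 0.0853 in CS19, below TBX2 without overlap. Among the 10 genes, the highest mean TPM was thus that of TBX1 in WT and that of TBX3 in each clone, where its range overlapped the next.

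TBX3 (chr12:114670255-114684175, minus strand), a repressor whose loss disturbs mammary and limb development, was near 0 in WT and had the highest mean TPM of the 10 genes in each clone. Its counts were 0, 1 and 0 in WT, 1154, 1062 and 1408 in CS16, and 959, 1141 and 1358 in CS19. As CPM it reached 56.7, 50.8 and 56.1 in CS16 and 43.7, 49.6 and 44.5 in CS19. The groups lay far apart, and the single WT count was in WT-2. With that count the pooled ratio of clones over WT was 2853, with a 95% interval from counting error alone of 512 to 112716. The fitted log2 fold change was 11.08 (SE 0.41, adjusted p = 1.62e-09), and it was 10.58 without WT-1, 10.63 without WT-3 and 13.15 without WT-2, where no WT count remained and the fit rests on its prior count.

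TBX2 (chr17:61399843-61409466, plus strand), the paralogue of TBX3 and a repressor of cell-cycle inhibitor genes, had 0, 8 and 3 counts in WT. It had 453, 308 and 496 in CS16 and 377, 543 and 565 in CS19. In CPM it rose from 0.204 ± 0.233 (SD, n = 3) in WT to 18.9 ± 3.83 in CS16 and 19.8 ± 3.38 in CS19. Every clone library was above every WT library, and the WT value came mostly from WT-2. The log2 fold change of the clones against WT was 6.59 (SE 0.54, adjusted p = 7.67e-07). It was 5.98 without WT-1, 7.89 without WT-2 and 6.47 without WT-3.

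The other members of this subfamily, TBX4 and TBX5, are the hindlimb and lung and the forelimb and heart factors. TBX4 (chr17:61452404-61485110, plus strand) had 0, 6 and 0 counts in WT, 0, 5 and 1 in CS16 and 1, 0 and 2 in CS19. TBX5 (chr12:114353911-114408442, minus strand) had 0, 2 and 1 counts in WT, a single count over the 3 CS16 libraries and none in CS19. Neither passed the filter on low counts, and a difference between the groups was not detectable at this depth. TBX4 lies 42938 bases beyond TBX2 on the same strand, and TBX5 lies 261813 bases from TBX3 on the same strand. In each of these neighbouring pairs, 1 gene was expressed in the clones and the other stayed at or near the floor.

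TBX18 (chr6:84687351-84764598, minus strand), a factor of the sinus node, epicardium and ureteric mesenchyme, had 1, 6 and 8 counts in WT. It had 1209, 1129 and 1428 counts in CS16 and 1246, 1427 and 1805 in CS19. The WT mean was 0.268 ± 0.192 CPM and the clone means were 56.7 ± 2.71 CPM (CS16) and 59.3 ± 2.62 CPM (CS19), over 3 libraries each (SD). No clone library came near the WT range, and the log2 fold change was 7.75 (SE 0.37, adjusted p = 8.77e-09), and the value was 7.24 without WT-1, 7.96 without WT-2 and 8.26 without WT-3.

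TBX20 (chr7:35202430-35254100, minus strand), a regulator of the heart chambers, had 0, 0 and 1 counts in WT, 150, 147 and 181 in CS16 and 141, 172 and 197 in CS19. The mean was 7.20 ± 0.170 CPM (SD, n = 3) over the CS16 libraries and 6.78 ± 0.595 CPM (SD, n = 3) over those of CS19, and the groups lay far apart. The pooled ratio of clones over WT was 398, with a 95% interval from counting error alone of 71.3 to 15738. The log2 fold change was 8.24 (SE 0.46, adjusted p = 3.56e-08). It was 7.74 without WT-1, 7.83 without WT-2 and 10.30 without WT-3, which held the single WT count. In that last fit no WT count remained, and the value rests on the prior count.

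TBX1 (chr22:19756703-19783593, plus strand), a factor of the pharyngeal arches and outflow tract, differed from these 4 genes in being expressed in WT. Its counts were 57, 242 and 53 in WT, 546, 447 and 777 in CS16, and 436, 585 and 609 in CS19. In CPM these were 2.82, 13.8 and 2.73 in WT, 26.8, 21.4 and 31.0 in CS16, and 19.9, 25.4 and 19.97 in CS19. All 6 clone libraries lay above all 3 WT libraries, and WT-2 was far above the other WT libraries. The log2 fold change was 1.90 (SE 0.48, adjusted p = 0.0047), past the cut-off on p and short of the cut-off of 2 on the fold change. Without WT-2 it was 3.11 (adjusted p = 3.52e-07) and passed both, and without WT-1 or WT-3 it was 1.54 or 1.56. TBX1 shared 280 of its 3830 exonic bases with GNB1L on the opposite strand, and the counting did not use strand, so pairs in that stretch cannot be assigned. GNB1L had 129, 414 and 171 counts in WT and 336 to 568 in the clones, with a log2 fold change of 0.44 (SE 0.34, adjusted p = 0.268).

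TBX15 (chr1:118883046-118989556, minus strand), the paralogue of TBX18 and a factor of skeletal development, went the other way. It had 13, 10 and 11 counts in WT, 3, 6 and 4 in CS16 and 3, 5 and 6 in CS19. The 6 clone libraries lay below all 3 WT libraries. The means were 0.198 ± 0.0773 CPM in CS16 and 0.183 ± 0.0419 CPM in CS19, against 0.593 ± 0.0427 CPM in WT (SD, n = 3 each). The gene fell by 1.61 on the log2 scale (SE 0.33, adjusted p = 0.00123), which did not reach the cut-off on the fold change. The 27 counts over 6 clone libraries against 34 over 3 WT libraries gave a ratio of 0.320 with a 95% counting interval of 0.186 to 0.546.

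TBX6 (chr16:30085793-30091924, minus strand), a factor of the paraxial mesoderm, had 18, 22 and 9 counts in WT, 13, 8 and 11 in CS16 and 19, 15 and 28 in CS19, and the groups overlapped. Its log2 fold change against WT was -0.40 (SE 0.39, adjusted p = 0.382), with a 95% interval from -1.26 to 0.45. TBXT (chr6:166157656-166168700, minus strand), the factor of the primitive streak and notochord, had a single count in WT-2 and none in the 6 clone libraries.

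Of the 10 members, 7 passed the filter on low counts in the comparison of the 6 libraries labelled SNAI1-KO with WT. That fit takes these libraries as independent replicates, although they came from CS16 and CS19 alone. A gene was called where its adjusted p was below 0.05 and its log2 fold change was 2 or more, or -2 or less, which are the cut-offs of the study. Of these 7 tested members, 4 were called higher and 0 lower, beside 26.9% of all 19631 genes tested, 12.6% higher and 14.3% lower. The 4 were TBX2, TBX3, TBX18 and TBX20, each with at most 8 counts in any WT library. They passed the filter only through the clones and so could only be called higher. The 0 called lower thus speaks only for TBX1, TBX6 and TBX15. With the cut-off on p alone, TBX1 joined those higher and TBX15 was lower, beside 63.7% of all genes, 31.1% higher and 32.6% lower.

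**Figure D2:**
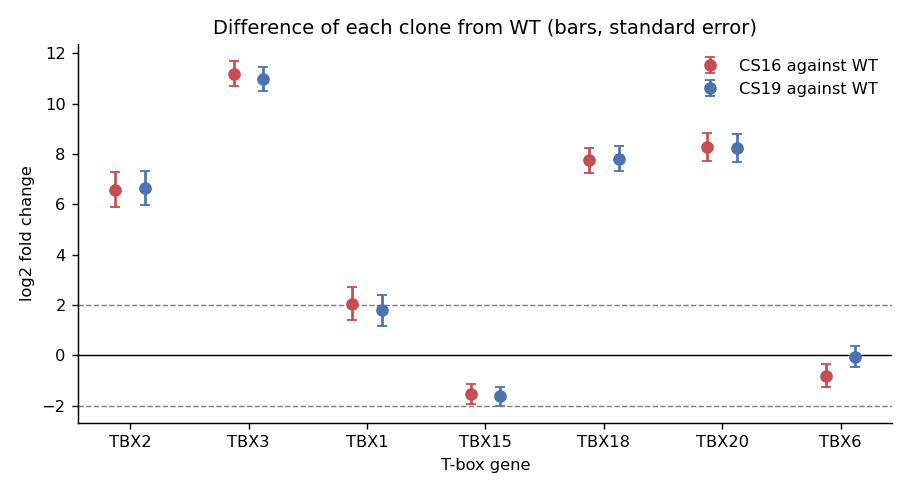
Log2 fold change of each clone against the 3 WT libraries (vertical axis) for the 7 members that passed the filter on low counts (horizontal axis), with bars for the standard error and dashed lines at the cut-offs of 2 and -2. CS16 and CS19 lie side by side for each gene, and TBX1 sits at the upper cut-off, at 2.06 in CS16 and 1.79 in CS19.

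Each clone was also compared with WT by itself, and both comparisons share the WT libraries. There too, TBX2, TBX3, TBX18 and TBX20 could only be called higher. CS16 against WT gave 5 of the 7 members tested called higher and 0 lower, beside 27.1% of all genes tested, 11.8% higher and 15.3% lower. With the cut-off on p alone, 6 members and 55.6% of genes passed. CS19 against WT gave 4 higher and 0 lower, beside 26.4% of all genes tested, with 2266 of the 18935 genes higher and 14.4% lower. With the cut-off on p alone, 6 members and 52.9% of genes passed. The log2 fold changes in CS16 and CS19 were 6.58 and 6.66 for TBX2, 11.20 and 10.98 for TBX3, 7.75 and 7.82 for TBX18, and 8.28 and 8.23 for TBX20. TBX1 accounted for the difference in number, with 2.06 in CS16 (SE 0.64, adjusted p = 0.0281) and 1.79 in CS19 (SE 0.63, adjusted p = 0.0443). Leaving out WT-1, WT-3 or any of the 3 CS16 libraries ended the call of TBX1 in CS16, with adjusted p between 0.0517 and 0.0672. Without WT-2, the log2 fold change of TBX1 was 3.25 in CS16 and 2.99 in CS19, past both cut-offs in each. Leaving out WT-1, WT-3 or any of the 3 CS19 libraries took TBX1 in CS19 past 0.05, with adjusted p between 0.0740 and 0.113 and log2 fold changes down to 1.41. TBX15 was lower in CS16 by a log2 fold change of -1.54 (adjusted p = 0.0145) and in CS19 by -1.62 (adjusted p = 0.00852). At these low counts the pass of TBX15 on p was lost in both clones with DESeq2 (adjusted p = 0.0997 in CS16 and 0.0663 in CS19), without a filter (0.0745 and 0.0534), and without replicate 1 or 3 of the clone (0.0770 and 0.0824 in CS16, 0.0536 and 0.0522 in CS19), and in CS16 also with the replicate block (0.0615). TBX6 did not pass in either clone.

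CS16 and CS19 were compared directly to see how far T-box levels depend on the clone. None of the 6 members tested was past both cut-offs in edgeR's quasi-likelihood test or in DESeq2, beside 1.13% of all 17538 genes, 0.633% higher in CS16 and 0.496% lower, and only TBX3 had an unadjusted p below 0.05. TBX3 was higher in CS16 by a log2 difference of 0.24 (SE 0.08, adjusted p = 0.0322), beside 27.4% of genes that passed the cut-off on p alone, 14.7% higher and 12.7% lower. Its adjusted p was between 0.109 and 0.120 when CS16-1, CS16-3, CS19-1 or CS19-3 was left out. It was 0.126 with the replicate block, 0.694 in the shared fit of the 3 groups and 0.0561 with upper-quartile normalization. TBX1 passed the cut-off on p without CS16-2 (adjusted p = 0.00640), without CS19-2 (adjusted p = 0.0284) and without a filter on low counts (adjusted p = 0.0424). The other differences of CS16 from CS19, with their 95% intervals, were -0.065 for TBX2 (-0.38 to 0.25), -0.068 for TBX18 (-0.22 to 0.083), 0.083 for TBX20 (-0.18 to 0.35), 0.28 for TBX1 (-0.0048 to 0.56) and -0.75 for TBX6 (-1.52 to 0.0100). For TBX18, the interval leaves room for a difference of at most about 0.22 on the log2 scale, and for TBX6 for one of 1.52.

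**Figure D3:**
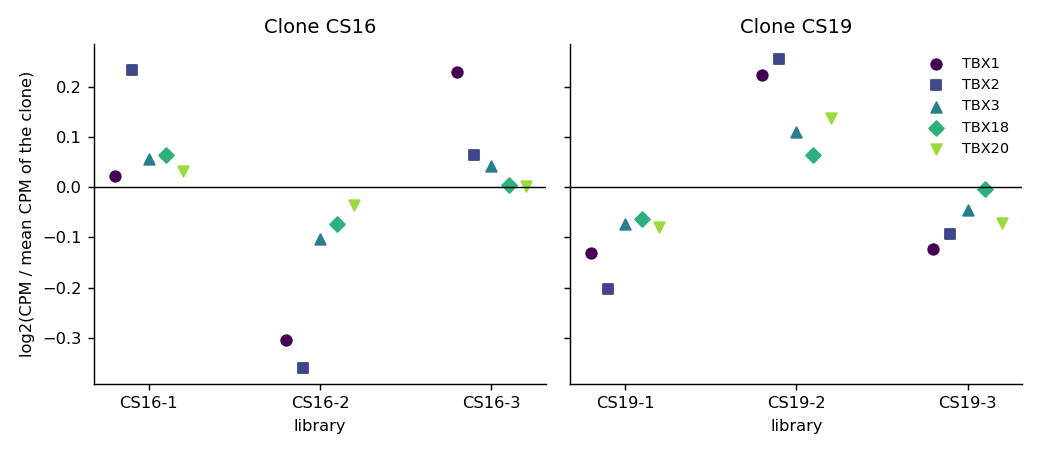
Log2 of CPM over the mean CPM of the clone (vertical axis) for 5 T-box genes in the 3 libraries of CS16 (left) and of CS19 (right), with 1 symbol per gene. CS16-2 is lowest for all 5 genes and CS19-2 is highest for all 5.

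The 5 expressed T-box genes shared their extreme library within a clone. CS16-2 had the lowest CPM of its clone for TBX1, TBX2, TBX3, TBX18 and TBX20, and CS19-2 had the highest for each of the 5. Of all 19631 genes, 37.8% were lowest in CS16-2 and 38.3% highest in CS19-2. The other ranks were not all shared, since CS16-3 was highest for TBX1 and CS16-1 for the other genes, and TBX20 deviated from the mean of CS16 by at most 0.036 on the log2 scale. The spread differed by gene. The coefficient of variation over the 3 libraries was 18.3% and 14.6% for TBX1 in CS16 and CS19, 20.3% and 17.1% for TBX2, 5.99% and 6.93% for TBX3, 4.77% and 4.42% for TBX18, and 2.36% and 8.78% for TBX20. TBX1 and TBX2 thus had the widest spread in both clones. What these libraries share was not tested.

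The proteins and coding sequences were compared because reads from near-identical genes could be counted on the wrong member. In translated coding sequences of gencode release 44, TBX2 and TBX3 matched at 425 of 665 aligned residues (63.9%), TBX15 and TBX18 at 348 of 564 (61.7%), and TBX4 and TBX5 at 293 of 480 (61.0%). Over a shorter stretch of 181 residues, TBX2 and TBX5 matched at 121 (66.9%). The longest run of identical coding bases between any pair of members was 24, between TBX2 and TBX3. The proteins ranged from 436 residues in TBX6 and TBXT to 723 in TBX3. In the pair of TBX15 and TBX18, the former was lower in the clones and the latter higher, and in the pair of TBX2 and TBX3 both were higher.

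Antisense genes overlap several members. TBX2-AS1 starts beyond the end of TBX2, runs into it on the opposite strand and shares no exonic base with it. It had 0, 4 and 7 counts in WT and 46 to 83 in the clones, with a log2 fold change of 3.64 (SE 0.53, adjusted p = 9.40e-05). TBX3-AS1, which shares 196 of the 5960 exonic bases of TBX3, had no count in WT, 9, 13 and 16 in CS16 and 9, 6 and 12 in CS19. TBX18-AS1 shares no exonic base with TBX18 and had no count in WT, 7, 8 and 15 in CS16 and 4, 3 and 4 in CS19. Neither of the last-named genes passed the filter. In the clones, TBX18-AS1 had at most 15 counts in a library where TBX18 had at least 1129, and TBX3-AS1 at most 16 where TBX3 had at least 959. TBX5-AS1 and LNCDAT, which overlap TBX5 and TBXT, had 1 and 0 counts in all.

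**Figure D4:**
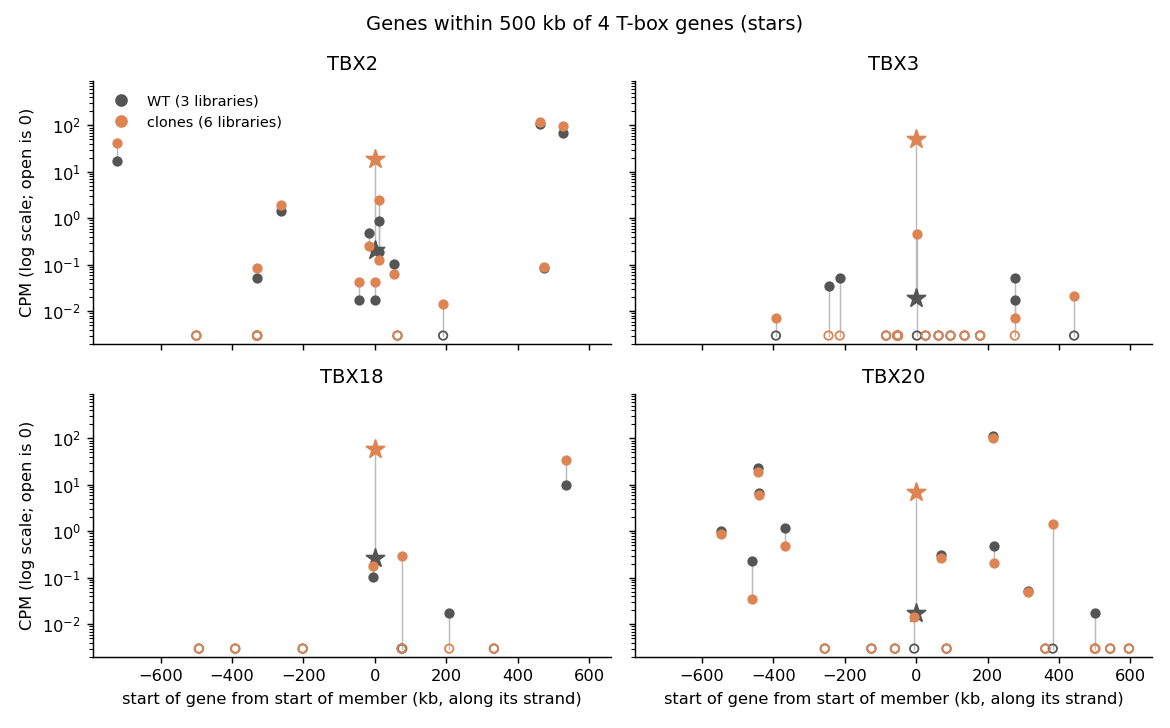
CPM on a log scale (vertical axis) of the genes within 500 kb of TBX2, TBX3, TBX18 and TBX20 in the pooled WT (grey) and clone libraries (orange), by distance between gene starts in kb along the strand of the member (horizontal axis), with the member as a star and open points at 0. All 4 members are called higher. Of the neighbours tested, 1 of 6 is called near TBX2, 1 of 6 near TBX20 and 0 of 1 near TBX18. None of the 15 neighbours of TBX3 passed the filter, so none could be called.

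The genes around the members were examined within 500 kb, and their calls stand beside the 12.6% of all genes tested that were called higher and the 14.3% called lower. None of the 15 neighbours of TBX3 passed the filter, and apart from TBX3-AS1 no neighbour had more than 3 counts over the WT libraries or more than 3 over the clones. Around TBX18, 1 of 9 neighbours was tested, CEP162, a gene of the centriole, with a log2 fold change of 1.75 that did not pass the fold cut-off. Around TBX2, 6 of 17 were tested and only TBX2-AS1 was called higher. The flanking gene BCAS3, named after its values were seen, had a log2 fold change of 1.25 (SE 0.16, adjusted p = 3.99e-05). Around TBX20, 6 of 20 were tested and 1 was called higher, NPSR1-AS1, with 0 counts in WT and 206 over the clones.

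Around TBX1, 24 of 47 neighbours were tested, and 3 were called higher and 0 lower. These were ARVCF, a catenin of cell junctions with a log2 fold change of 2.32, and the unnamed genes ENSG00000232926 (2.13) and ENSG00000287146 (2.42). Around TBX6, in a gene-dense stretch, 48 of 94 were tested, and 9 were called higher and 2 lower. The nearest of these were YPEL3-DT (2.62), KCTD13-DT (2.12), ASPHD1 (-4.09) and CDIPTOSP, with 1 count in WT and 92 over the clones, while TBX6 itself did not pass. Around TBX15, 3 of 20 were tested and 0 were called.

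Of the 7 T-box genes outside the 10, 3 passed the filter, and the other 4 had at most 12 counts in any library. EOMES, a factor of endoderm, mesoderm and T cells, had no count in WT, 15, 11 and 24 in CS16 and 50, 68 and 57 in CS19. With the clone libraries pooled, it was at least 30.2-fold higher, taking 3 counts over the 3 WT libraries as the floor (adjusted p = 0.000492). Such pooled folds, here and below, need not hold for each clone alone. EOMES also differed between the clones, lower in CS16 than in CS19 by a log2 difference of -1.65 (SE 0.29, adjusted p = 0.000928). TBX19, a pituitary factor, had 42, 40 and 30 counts in WT and 10 to 18 in the clones, and fell by 1.81 on the log2 scale (SE 0.24, adjusted p = 4.88e-05), short of the fold cut-off. MGA, which pairs with MAX and holds a T-box, had a mean of 139 ± 8.34 CPM (SD, n = 3) in WT and moved by a log2 fold change of 0.31 (SE 0.12, adjusted p = 0.0384). TBX10 had 0 to 6 counts per library, TBX21 0 to 12, TBR1 0 to 6 and TBX22 0 to 1, and none of these 4 was tested.

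Partners and cofactors of T-box proteins were taken as a list of 20 genes, of which 17 were tested. There, 11 were called higher and 1 lower, beside 12.6% of all genes tested called higher and 14.3% lower. The median log2 fold change was 4.79 over the tested genes (4.31 with the 5 genes without a WT count at their bound), beside -0.0040 over all genes. Of the 20 partners, 10 were at or under 3 counts in every WT library. Such genes pass the filter only through the clones and can then only be higher, so the median and the calls lean upward. TLE4, a corepressor of the Groucho family, had no count in WT, a mean of 175 ± 9.96 CPM (SD, n = 3) over CS16 and one of 178 ± 6.20 CPM (SD, n = 3) over CS19, at least 3366-fold higher. SALL1, a zinc-finger factor of limb and kidney, was at least 358-fold higher, ISL1, a homeodomain factor of the second heart field, at least 261-fold, and NKX2-1, a factor of thyroid and lung, at least 19.9-fold. LMCD1, a LIM protein that binds GATA6, fell by 3.27 on the log2 scale. NKX2-5 and GATA4, the cardiac partners of TBX5 and TBX20, were named after their values were seen. NKX2-5 went from 0.249 ± 0.0818 CPM in WT to 26.1 ± 3.42 in CS16 and 19.1 ± 0.289 in CS19, and GATA4 from 0.0737 ± 0.0883 to 12.1 ± 0.664 and 10.5 ± 1.87. TBX5 was not detected above the floor in these libraries, whereas TBX20 was.

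Genes reported in other work as T-box targets, activated or repressed, formed a list of 20, of which 11 were tested. Here 7 were called higher and 1 lower, beside 12.6% and 14.3% of all genes tested, with a median of 2.41. The limit given for the partners holds here too, with 9 of the 20 at or under 3 counts in every WT library. WNT11, a secreted ligand, had a log2 fold change of 4.71 (SE 0.50) and GJA1, the gene of connexin 43 and a reported target of repression by TBX2, one of 4.08 (SE 0.32). NDRG1, reported to be repressed by TBX2 in breast cancer cells, fell by 2.54 (SE 0.19). CDKN2A, another reported target of repression by TBX2 and TBX3, was at least 1056-fold higher in the clones, and its WT libraries had no count at the adjacent CDKN2B and MTAP either. The list mixes both directions of regulation, and its members moved both ways.

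Signals and factors upstream of T-box genes formed a list of 20, of which 17 were tested, with a median of 3.11. Calls were 10 higher and 3 lower, beside 12.6% and 14.3% of all genes tested. The same limit applies, with 6 of the 20 at or under 3 counts in every WT library. BMP7 was at least 1235-fold higher and had a mean of 70.7 ± 3.51 CPM (SD, n = 3) over CS16 and one of 59.7 ± 3.17 CPM (SD, n = 3) over CS19. CYP26A1, which breaks down retinoic acid, was at least 77.2-fold higher, GLI1, a factor of hedgehog signalling, at least 36.9-fold, and ALDH1A2, which makes retinoic acid, rose by 7.91 (SE 0.28). BMP4 fell from 306 ± 139 CPM in WT to 7.82 ± 1.37 in CS16 and 7.08 ± 0.601 in CS19 (SD, n = 3 each). SHH fell by 5.56 (SE 0.39) and FOXA2, an endodermal factor, by 10.38 (SE 0.47), from 16.9 ± 6.40 CPM (SD, n = 3) in WT to 1 count over the clones, a ratio of 0.000424 with a 95% counting interval of 1.07e-05 to 0.00237. The 2 BMP genes thus moved in opposite directions.

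Regulators of mesoderm formed a list of 25, of which 18 were tested, with a median of 4.12. Calls were 11 higher and 3 lower, beside 12.6% and 14.3% of all genes tested. The same limit applies, with 15 of the 25 at or under 3 counts in every WT library. HOXD13, the posterior limb gene, was at least 2233-fold higher. PAX3, a dermomyotome factor, was at least 572-fold higher, GSC, a gene of the organizer, at least 88.8-fold, and TWIST2, a mesenchymal factor, at least 66.7-fold. OSR1 fell by 8.29 (SE 0.44) and KDR by 2.95 (SE 0.39). MESP1, an early cardiac mesoderm gene, fell by 2.00 (SE 0.51), at the cut-off, and was lower in CS16 than in CS19 by a log2 difference of -1.71. The list had 3 genes called lower in CS16 against WT, 2 in CS19 against WT, and 2 for both clones without WT-2. The called genes of this list thus moved both ways.

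Markers of cell types also moved between the groups. Their calls stand beside 12.6% of all genes tested called higher and 14.3% called lower. Of 10 basal breast markers, 8 were tested and 7 were lower, S100A6, CD44, PLAU and LGALS1 most, and VIM, at a log2 fold change of -1.52, passed on p alone. Of 10 luminal markers, 8 were tested and 5 were lower, most of all KRT19, KRT8, EPCAM and KRT18, while FOXA1 was higher, and the list summed to 1639 to 2414 CPM in WT and 312 to 371 CPM in the clones. Of 10 markers of embryonic kidney, 8 were tested, 4 were higher and 2 lower, with sums of 36.0 to 76.1 CPM in WT and 34.6 to 42.1 CPM in the clones. Of 8 neuroendocrine markers, 6 were tested, 4 were higher and 1 lower, with sums of 67.0 to 99.6 CPM and 73.1 to 84.2 CPM. The fibroblast list had 1 higher and 2 lower of 5 tested, the haematopoietic list 1 and 2 of 4, and the endothelial list 0 and 1 of 2. The haematopoietic list summed to at most 33.1 CPM and the endothelial list to at most 8.24 CPM in any library. The fibroblast list summed to 58.6 to 128 CPM in WT, 62.2 to 66.7 in CS16 and 10.3 to 12.5 in CS19. The basal, luminal, haematopoietic and endothelial sums were thus lower in both clones, and the fibroblast sum in CS19 only. The embryonic kidney and neuroendocrine sums overlapped between WT and clones. What part these lists have in the T-box result was not tested.

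The genes whose profile over the 9 libraries was most like a member were sought among the other 19630 genes that passed the filter, by Pearson correlation of log2(CPM + 1). For TBX3 they included IGF2BP1 and BMP7, each at 1.00 after rounding. For TBX18 they were RFLNB (1.00), DMKN (0.999) and ZNF536 (0.999), and for TBX1 they were TFAP4 (0.997), PTPRU (0.995) and TMEM120B (0.993). The profiles of TBX3 and TBX18 are dominated by the step between WT and clones, so that 633 and 627 genes correlated with them at 0.99 or more, against 13 for TBX1. The correlations describe these 9 libraries, which share their group structure.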

How the data were processed

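Total RNA of 9 libraries was depleted of ribosomal RNA and sequenced from stranded libraries. Per the labels, the paper's methods and the file headers, the authors used Trimmomatic 0.36 for trimming, STAR 2.7.2b for alignment to GRCh38 and featureCounts (Subread 2.0.0) for counting pairs per gene of gencode release 38, with a minimum mapping quality and without using strand. The deposited values are raw counts, not normalized. Stranded libraries counted without strand leave pairs in stretches shared by sense and antisense genes unassigned. The counts carry no molecular identifiers, so intervals and floors cover counting error only.

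Samples were grouped by their labels. The members, gene lists and tests were chosen with earlier results of these data known. Genes passing filterByExpr were normalized by TMM and tested with edgeR 4.0.16 (quasi-likelihood test, Benjamini-Hochberg adjustment over all genes tested) in R 4.3.3, in fits holding only the groups compared. A call needed an adjusted p below 0.05 together with a log2 fold change of 2 or more, or -2 or less. The steps were tested on simulated data. CPM used the TMM library sizes, and TPM used the exonic lengths in the files. Folds against a group without counts pooled the libraries of both clones and used a floor of 3 counts over the group. Ratios of pooled counts have exact 95% intervals. Named genes were the 10 members, the other T-box genes, in each list up to 4 called genes with the largest change in each direction, up to 4 called neighbours of each tested member within 500 kb, overlapping antisense genes and the 3 most similar genes of the 3 members with the highest TPM. Among these, 1 reported target and 1 similar gene are not reported here. Promoter sequences are from RefSeq on GRCh38.p14. Overlaps used the exons in the files. Alternatives were DESeq2 1.42.0, RLE and upper-quartile normalization, no filter, at least 10 counts in at least 3 libraries, cut-offs on p alone and of 1 on the log2 fold change, a replicate block, a shared fit of the 3 groups, leaving out each library, and CPM in place of TPM for the order of levels.

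Samples of different groups with the same replicate number deviated together no more than those with different numbers. The correlations of their deviations from the group means lay between -0.386 and 0.331 for the same number. For different numbers they lay between -0.347 and 0.373, so the numbers were not taken to pair the samples.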

Additional observations from a re-analysis of the deposited data

Results flagged for a closer look

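TBX3 and several of the genes listed around the T-box genes differed between the 2 clones. Each had an adjusted p below 0.05 by edgeR's quasi-likelihood test of CS16 against CS19, and none was past the fold cut-off of 2. Of all 17538 genes tested between the clones, 27.4% passed the same cut-off on p, 14.7% higher in CS16 and 12.7% lower. Of the 6 members tested, 1 passed it. TBX3 was higher in CS16 by a log2 difference of 0.24, and EOMES lower in CS16 by -1.65. The adjusted p of TBX3 missed 0.05 with the replicate block (0.126), in the shared fit (0.694), with upper-quartile normalization (0.0561) and without CS16-1, CS16-3, CS19-1 or CS19-3 (0.109 to 0.120). Among the partners, the log2 difference was 0.88 for ISL1, 0.46 for SALL1 and 0.45 for NKX2-5. Among the reported targets it was 1.00 for WNT11, 0.64 for GJA1 and 0.56 for NDRG1. Among the upstream signals it was 1.25 for GLI1, 0.45 for CYP26A1, 0.33 for ALDH1A2 and 0.24 for BMP7. Among the mesoderm regulators it was -0.38 for PAX3 and -1.71 for MESP1. Each clone is a single clone with 3 libraries, so the clone and any difference in its handling cannot be told apart.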

How the results depend on the processing

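The direction of TBX1, TBX2, TBX3, TBX15, TBX18 and TBX20 against WT was kept under every alternative that tested them, and TBX2, TBX3, TBX18 and TBX20 were called under each of them. Over the fits of the 6 clone libraries against WT that leave out 1 library each, the number of members called was 4 to 5. The passes on p of TBX15 in each clone and of TBX3 between the clones were lost under several alternatives, given with those results. The fit with the replicate block gave 5 members called against WT (4 without it), 5 in CS16, 5 in CS19 (4 without it) and 0 between the clones. TBX1 was the gene gained, at a log2 fold change of 2.18 for both clones and 2.21 for CS19. It was also called without a filter on low counts (2.03). TBX6 in CS19 against WT (-0.054) changed sign, to 0.034 without a filter, to 0.013 with the replicate block, and to 0.28 and 0.10 without WT-2 and CS19-2, in a range of -0.34 to 0.28 over the fits that leave out 1 library. TBX2 between the clones (-0.065) changed sign to 0.083 and 0.090 without CS19-2 and CS16-2, in a range of -0.19 to 0.090. The cut-off on p alone called 1 member between the clones, against 0. By CPM in place of TPM, 5 of the 10 members kept their rank in WT, 5 in CS16 and 6 in CS19. Leaving out 1 WT library, 4 to 10 kept it, with 4 without WT-2 and 5 without WT-3. The cause of these changes was not tested, and low counts limit every rank below TBX1 in WT. The number of genes called against WT, 5272, was 8662 without a filter, 12506 by p alone and 9251 with a log2 fold change of at least 1. For CS16 it was 5045, against 10342 by p alone and 8567 with a fold change of at least 1. For CS19 it was 4990, against 7513 without a filter, 10014 by p alone and 8309 with a fold change of at least 1. Between the clones it was 198, against 352, 4814 and 833. Without WT-2, an alternative added after seeing the data as were those that left out other libraries for the order of levels, the counts of list genes called stayed within 1.5 times of those given, except that 1 endothelial marker was called higher in place of 0.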
